A study of Mus musculus with 8 samples.

Results

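Nodal, Lefty1, Lefty2, Tdgf1, Gdf3 and Foxh1, the core genes of Nodal and Lefty signalling, were followed in mouse embryonic stem (ES) cells with and without the histone demethylase RBP2. They were taken by name: every probe set whose single gene symbol in the array's annotation was one of the 6, which gave 10 probe sets out of 45101. All 6 genes were among the 10916 tested out of 18193 measured, so none was lost to the filter on low values. Transcripts had been hybridised to 8 Affymetrix mouse genome arrays, which carry short probes in sets per transcript. By the labels these formed 4 groups of 2 arrays: Rbp2-/- cells after 6 days without leukemia inhibitory factor (LIF), Rbp2f/f cells after 6 days without LIF, Rbp2-/- cells with LIF and Rbp2f/f cells with LIF. LIF is a cytokine added to culture medium to hold mouse ES cells in their undifferentiated state. Rbp2-/- denotes loss of the gene and Rbp2f/f, in the usual notation, intact copies flanked by recombination sites; the labels name no Cre driver, no clone and no feeder layer. They call the 2 arrays of a group biological replicates without saying which cultures they came from, so the p-values below measure only the spread between these samples, and that spread may be technical. The labels' RBP2 was taken to be the product of the gene now named Kdm5a.

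Nodal is a secreted ligand of the transforming growth factor beta family. It binds activin receptors together with a co-receptor, encoded by Tdgf1 (Cripto), and the receptors phosphorylate SMAD2 and SMAD3. These enter the nucleus with SMAD4 and act with the DNA-binding partner FOXH1, among other places on Nodal itself and on Lefty1 and Lefty2. The Lefty proteins are secreted inhibitors that bind Nodal and its co-receptor and so close a negative feedback loop. GDF3 is a related ligand that can act through the same receptors and is a familiar marker of undifferentiated ES cells. In the early embryo the pathway patterns the epiblast and induces the primitive streak and endoderm, and mouse ES cells transcribe several of its genes in culture.

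FOXH1 and the SMADs act through DNA sites, and the mean levels of Nodal and Tdgf1 were lower without LIF. Of the 6 genes, only Nodal and Tdgf1 had promoters in the table used, and these promoters are shown. They are the RefSeq sequences from 250 bases before to 50 after the start, on assembly GRCm38.p6, and 2 of the 6 genes were in that table. The Nodal window is chr10:61417722-61418021 on the plus strand, and the Tdgf1 window is chr9:110946109-110946408 on the minus strand. Capitals mark matches to AATNNACA, a loose form of the FOXH1 site AATCCACA, searched on both strands.
Nodal: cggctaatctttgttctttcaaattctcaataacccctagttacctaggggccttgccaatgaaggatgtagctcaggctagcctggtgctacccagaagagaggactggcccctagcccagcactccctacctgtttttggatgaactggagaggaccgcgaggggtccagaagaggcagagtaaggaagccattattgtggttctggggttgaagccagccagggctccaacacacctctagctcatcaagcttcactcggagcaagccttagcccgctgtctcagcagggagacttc
Tdgf1: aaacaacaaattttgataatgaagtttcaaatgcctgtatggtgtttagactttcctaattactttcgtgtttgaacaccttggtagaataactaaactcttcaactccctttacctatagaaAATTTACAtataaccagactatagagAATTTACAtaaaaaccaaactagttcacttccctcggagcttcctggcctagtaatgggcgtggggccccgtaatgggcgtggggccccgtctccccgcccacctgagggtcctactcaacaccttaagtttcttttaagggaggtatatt
The Tdgf1 window held 2 matches to AATNNACA and the Nodal window held 0, and 12.2% of the 32851 promoter windows in the table held at least 1. Neither window held AATCCACA (0.855% of all windows), which is a case of AATNNACA, or the SMAD motifs GTCTAGAC (0.213%) and CAGACA (21.0%). These are matches of letters in a short window and say nothing about binding.

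On its brightest probe set the targeted gene was lower on every Rbp2-/- array than on any Rbp2f/f array. Sets that ranged from 27.0 to 172.4 and from 13.3 to 76.6 gave the same order. The remaining sets, at or under 21.8 on every array, did not repeat it in both media. The brightest Kdm5a probe set read 95 and 66.8 in Rbp2-/- cells without LIF, against 209.7 and 224.8 in Rbp2f/f cells without LIF. With LIF it read 34.1 and 43.5 in Rbp2-/- cells, against 134.1 and 167.8 in Rbp2f/f cells. The limma difference was -1.28 ± 0.22 in log2 without LIF (adjusted p = 0.114) and -1.60 ± 0.22 with LIF (adjusted p = 0.0707), so neither passed adjustment. On LIF withdrawal the brightest set differed by 0.81 ± 0.22 in Rbp2-/- cells (limma adjusted p = 0.0354). In Rbp2f/f cells it differed by 0.49 ± 0.22 (limma adjusted p = 0.125). Where the Kdm5a probes lie relative to the deleted part was not analysed here.

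These and all intensities below are quantile-normalized unless called deposited. The arrays had not all been deposited at the same level: replicate 2 of Rbp2-/- cells with LIF had a 2% trimmed mean of 77.5, against 110.5 to 128.4 on the other 7 arrays. The 2 arrays within a group had correlations of 0.958 to 0.982 across genes, and genes are not independent. Replicate 2 of Rbp2-/- cells without LIF was nearer to replicate 1 of Rbp2f/f cells without LIF (0.979) than to its own partner (0.972). The 10 markers of undifferentiated ES cells summed to 3061.3 to 4127.8 over the 4 arrays without LIF, against 18102.5 to 21036.0 over the 4 arrays with LIF, and all 10 fell in both genotypes. The 9 extraembryonic endoderm markers summed to 581.8 to 773.5 without LIF, against 226.7 to 242.9 with LIF, with Sox7, Afp and Apoa1 under 20 on every array. The 9 feeder fibroblast markers summed to 1598.1 to 4058.9 without LIF, against 596.2 to 992.9 with LIF. The 5 epiblast-stage markers summed to 673.4 to 1649.8 without LIF, against 2215.2 to 5188.3 with LIF, most of it Dnmt3b. The 7 neuroectoderm markers summed to 247.3 to 535.5 without LIF, against 394.7 to 615.3 with LIF, with Sox1 and Neurog2 under 20 on every array.

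The ligand Gdf3 separated the media completely. Its brightest probe set read 61.6 and 76.9 in Rbp2-/- cells without LIF, against 929.5 and 794.7 in Rbp2-/- cells with LIF. The Rbp2f/f arrays read 78.7 and 75.5 without LIF, against 694.8 and 692.9 with LIF. All 4 arrays without LIF lay below all 4 with LIF, and replicates were close together. A second Gdf3 probe set gave the same order by medium, with 3.1 to 5.9 over the arrays without LIF, against 134.7 to 182.4 with LIF. The group means were 69.2 ± 10.8 in Rbp2-/- and 77.1 ± 2.27 in Rbp2f/f cells without LIF, and 862 ± 95.3 in Rbp2-/- and 694 ± 1.35 in Rbp2f/f cells with LIF (SD, n = 2 each). On the brightest probe set the genotypes overlapped without LIF and did not with LIF, though as deposited they overlapped in both media. On the second they overlapped in both media, with 182.4 and 134.7 in Rbp2-/- cells with LIF, against 160.2 and 173.4 in Rbp2f/f cells with LIF.

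Without LIF the ligand Nodal was lower and uneven. Its brightest probe set read 84.6 and 478.7 in Rbp2-/- cells without LIF, against 670.8 and 865.9 in Rbp2-/- cells with LIF. Its Rbp2f/f levels were 326.0 and 499.5 without LIF, against 1229.5 and 950.2 with LIF. The arrays without LIF were all below the arrays with LIF, but replicate 1 of Rbp2-/- cells without LIF lay far below the other 3 arrays of that medium. The order of the group means was Rbp2-/- without LIF (282 ± 279), Rbp2f/f without LIF (413 ± 123), Rbp2-/- with LIF (768 ± 138) and Rbp2f/f with LIF (1090 ± 197; SD, n = 2 each). The 2 groups without LIF overlapped in their arrays. The second Nodal probe set read 66.7 and 262.7 in Rbp2-/- cells without LIF, against 285.1 and 427.9 in Rbp2-/- cells with LIF. This set read 123.1 and 186.6 in Rbp2f/f cells without LIF, against 295.2 and 369.1 with LIF, so it repeated the order by medium, while the genotypes overlapped on it in both media. As deposited, the media overlapped on this set in Rbp2-/- cells, at 70.6 and 306.6 without LIF, against 273.0 and 290.1 with LIF.

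Tdgf1, the co-receptor, read 165.3 and 895.6 in Rbp2-/- cells without LIF, against 1812.2 and 1351.5 in Rbp2-/- cells with LIF. Its Rbp2f/f levels were 601.2 and 775.3 without LIF, against 2360.1 and 2957.4 with LIF. As for Nodal, the media did not overlap after normalization and replicate 1 of Rbp2-/- cells without LIF was the lowest array. The group means were 530 ± 516 in Rbp2-/- and 688 ± 123 in Rbp2f/f cells without LIF, then 1582 ± 326 in Rbp2-/- and 2659 ± 422 in Rbp2f/f cells with LIF (SD, n = 2 each), and the arrays of the first pair of groups overlapped. As deposited, the media overlapped in Rbp2-/- cells, at 173.3 and 982.3 without LIF, against 1839.9 and 915.3 with LIF. The share of all genes tested whose arrays separated the media was not analysed here.

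The inhibitor Lefty1 read 31.0 and 197.8 in Rbp2-/- cells without LIF, against 453.5 and 149.4 in Rbp2-/- cells with LIF. The Rbp2f/f arrays read 97.5 and 166.9 without LIF, against 630.2 and 1389.0 with LIF. The media overlapped in Rbp2-/- cells and not in Rbp2f/f cells, and both Rbp2f/f arrays with LIF were above every other array. Its means were 114 ± 118 in Rbp2-/- and 132 ± 49.1 in Rbp2f/f cells without LIF, and 301 ± 215 in Rbp2-/- and 1010 ± 536 in Rbp2f/f cells with LIF (SD, n = 2 each). Apart from the Rbp2f/f group with LIF, neighbouring groups in that order overlapped.

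Lefty2, its close relative and likewise an inhibitor, read 5.2 and 52.1 in Rbp2-/- cells without LIF, against 83.9 and 11.5 in Rbp2-/- cells with LIF. Its levels in Rbp2f/f cells were 42.9 and 62.7 without LIF, against 121.3 and 262.4 with LIF. The pattern was that of Lefty1, with both Rbp2f/f arrays with LIF above every other array. In Rbp2-/- cells, replicate 1 without LIF and replicate 2 with LIF were dim for Lefty2. Their deposited values of 5.7 and 9.2 lay under the medians of those arrays, 22.3 and 15.7. Folds and percentages of Lefty2 that use them are therefore imprecise. Its means were 28.6 ± 33.2, 52.8 ± 14.0, 47.7 ± 51.2 and 192 ± 99.8 in Rbp2-/- without LIF, Rbp2f/f without LIF, Rbp2-/- with LIF and Rbp2f/f with LIF (SD, n = 2 each), and the arrays of the first 3 groups overlapped. Each inhibitor had 1 probe set, and how far each set also binds transcripts of the other was not tested.

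Foxh1, the DNA-binding partner of the SMADs, did not follow the other genes. Its brightest probe set read 462.5 and 782.1 in Rbp2-/- cells without LIF, against 450.7 and 476.4 in Rbp2-/- cells with LIF. The Rbp2f/f arrays read 468.8 and 271.6 without LIF, against 345.9 and 440.6 with LIF. The media overlapped in both genotypes. The means were 622 ± 226 in Rbp2-/- and 370 ± 139 in Rbp2f/f cells without LIF, and 464 ± 18.2 in Rbp2-/- and 393 ± 66.95 in Rbp2f/f cells with LIF (SD, n = 2 each), and neighbours in the order of level overlapped except the genotypes with LIF. As deposited, the genotypes with LIF overlapped on the brightest set as well. The other Foxh1 probe sets ranged from 174.4 to 448.6 and from 172.2 to 435.0 over the 8 arrays. On both of them the highest array was replicate 2 of Rbp2-/- cells without LIF.

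**Figure D1:**
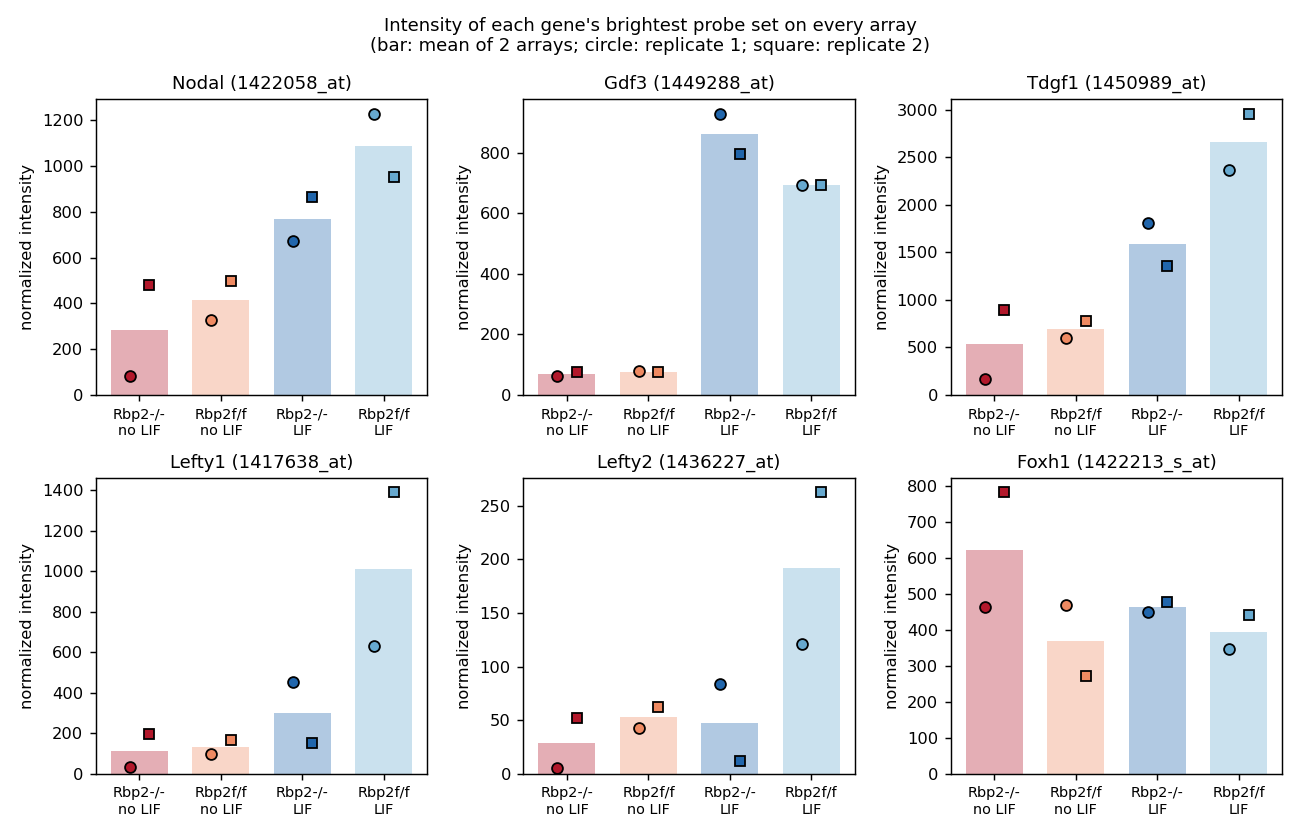
Normalized intensity (linear axis from 0, a scale per gene) of the brightest probe set of each of the 6 genes in the 4 groups. Each bar is a mean of 2 arrays, with replicate 1 as a circle and replicate 2 as a square. Gdf3 lies between 61.6 and 78.7 on the arrays without LIF, against 692.9 to 929.5 with LIF, whereas Nodal, Tdgf1, Lefty1 and Lefty2 have a low replicate 1 in Rbp2-/- cells without LIF.

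The first comparison asked what 6 days without LIF did to these genes in each genotype. In Rbp2-/- cells Gdf3 and Tdgf1 fell, and in Rbp2f/f cells Gdf3, Lefty1 and Tdgf1 fell. No gene of the 6 rose in either genotype. Here and below a gene is called changed at a limma adjusted p under 0.05 over all 10916 genes, on a log2 scale of intensity plus 16 that understates the change of dim genes. In bulk RNA, fewer cells transcribing a gene and less transcript per cell cannot be told apart.

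Gdf3 fell by 3.37 ± 0.18 in log2 in Rbp2-/- cells (standard error, adjusted p = 2.33e-05), to 8.03% of its level with LIF. It fell by 2.93 ± 0.18 in Rbp2f/f cells (adjusted p = 5.74e-05), to 11.1% of the level with LIF. Both of its probe sets passed in both genotypes when each set was tested on its own. Tdgf1 fell by 1.96 ± 0.58 in Rbp2-/- cells (adjusted p = 0.0487), to 33.5% of its level with LIF, and it fell by 1.93 ± 0.58 in Rbp2f/f cells (adjusted p = 0.0352), to 25.9%. The call in Rbp2-/- cells rested on which array was included: without replicate 1 of that genotype without LIF the difference was -0.79 (adjusted p = 0.128), and without replicate 2 it was -3.14 (adjusted p = 0.000772). It was lost under 15 of the 20 alternative settings. The call in Rbp2f/f cells was lost under 7 of them, at adjusted p values up to 0.143.

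Lefty1 fell by 2.73 ± 0.71 in Rbp2f/f cells (adjusted p = 0.0204), to 13.1% of its level with LIF. Leaving out replicate 1 or 2 of Rbp2f/f cells without LIF, or replicate 2 of Rbp2f/f cells with LIF, ended that call, at adjusted p values of 0.104, 0.0662 and 0.117. In Rbp2-/- cells Lefty1 differed by -1.48 ± 0.71 (adjusted p = 0.190), by -0.38 without replicate 1 of those cells without LIF (adjusted p = 0.789) and by -2.57 without replicate 2 (adjusted p = 0.0435). Lefty2 differed by -0.47 ± 0.66 in Rbp2-/- cells (adjusted p = 0.680) and by -1.52 ± 0.66 in Rbp2f/f cells (adjusted p = 0.118). In Rbp2-/- cells the Lefty2 difference turned to 0.37 without replicate 1 of those cells without LIF and to 0.47 without replicate 1 of those cells with LIF, and it was not called in either case.

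Nodal missed the threshold in both genotypes although on its brightest probe set its arrays did not overlap between media. It differed by -1.80 ± 0.58 in Rbp2-/- cells (adjusted p = 0.0667) and by -1.39 ± 0.58 in Rbp2f/f cells (adjusted p = 0.107), with levels of 36.7% and 37.9% of those with LIF. The Rbp2-/- value was -0.66 without replicate 1 of those cells without LIF (adjusted p = 0.273) and -2.96 without replicate 2 (adjusted p = 0.00155). With either of these arrays left out, Nodal was called in Rbp2f/f cells, at adjusted p values of 0.00745 and 0.00787. Foxh1 differed by 0.37 ± 0.30 in Rbp2-/- cells (adjusted p = 0.444) and by -0.12 ± 0.30 in Rbp2f/f cells (adjusted p = 0.796).

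Read against the whole array, 2 of the 6 genes were called lower in Rbp2-/- cells, where 8.24% of all genes tested were called lower and 7.27% higher. In Rbp2f/f cells 3 of the 6 were called lower, where 13.2% of all genes tested were called lower and 14.0% higher. The median log2 difference of the 6 was -1.64 in Rbp2-/- cells, against 0.00067 over all genes, and -1.72 in Rbp2f/f cells, against -0.016 over all genes.

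**Figure D2:**
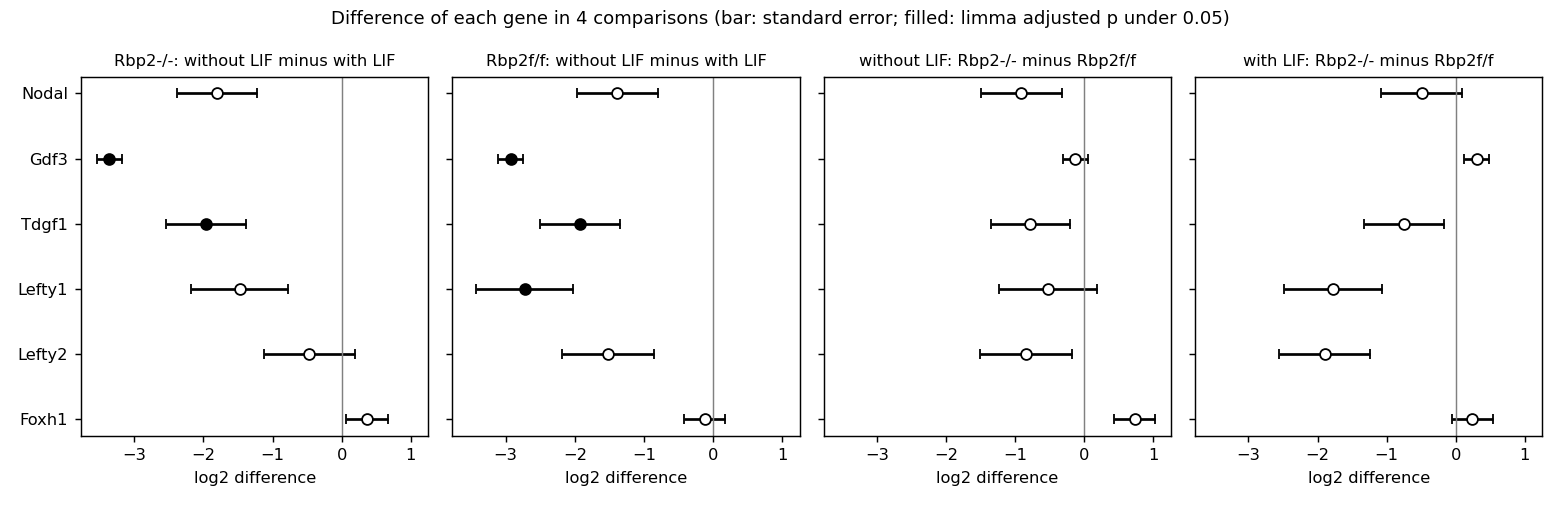
Log2 difference of each of the 6 genes in the 4 comparisons, with standard errors from the limma fit (2 arrays per group) and filled points for an adjusted p under 0.05. Gdf3 lies at -3.37 and -2.93 on withdrawal with errors of 0.18, Tdgf1 is filled in both genotypes and Lefty1 in Rbp2f/f cells, and no point is filled between genotypes.

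The second comparison asked whether the genotypes differed within a medium. None of the 6 genes was called, and neither was any other gene tested. The smallest adjusted p was 0.114 without LIF and 0.0707 with LIF in limma, 0.0% of the 10916 genes being called in each. An unadjusted p under 0.05 was held by 1550 genes without LIF and 1432 with LIF. Among the 6, Lefty1 and Lefty2 with LIF and Foxh1 without LIF had an unadjusted p under 0.05. Lefty1 differed by -1.77 ± 0.71 between Rbp2-/- and Rbp2f/f cells (limma adjusted p = 0.338, unadjusted 0.0322), with a 95% interval of -3.36 to -0.19 and a mean at 29.9% of that in Rbp2f/f cells. Lefty2 differed by -1.90 ± 0.66 (limma adjusted p = 0.284, unadjusted 0.0182), with an interval of -3.39 to -0.40 and a mean at 24.9%. Both Rbp2-/- arrays were below both Rbp2f/f arrays for each gene, and neither difference was called under any alternative setting run, over which the adjusted p of Lefty1 ran from 0.159 to 0.670 and that of Lefty2 from 0.118 to 0.619.

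The size of this difference changed with which Rbp2-/- array with LIF was included. Replicate 2, the dim array, had deposited values of 99.5 for Lefty1 and 9.2 for Lefty2, against 443.6 and 77.4 on its partner. After normalization the partner was still 3.04-fold higher for Lefty1 and 7.27-fold higher for Lefty2. Without the dim array the difference was -1.02 for Lefty1 and -0.97 for Lefty2, and without its partner it was -2.51 and -2.83. With LIF, signal from 18S ribosomal RNA had deposited means of 129.1 and 45.6 in Rbp2-/- cells, against 383.8 and 357.2 in Rbp2f/f cells. Without LIF its values overlapped, at 73.2 and 123.0 in Rbp2-/- cells, against 191.4 and 92.1 in Rbp2f/f cells. The ratio of 3' to 5' Gapdh control signal was 1.11 on replicate 1 of Rbp2f/f cells with LIF, against 0.78 to 0.85 on the other arrays. The 5 epiblast markers summed to 2215.2 and 2346.3 in Rbp2-/- cells with LIF, against 3887.3 and 5188.3 in Rbp2f/f cells with LIF. The part of the dim array, the 18S and Gapdh signals and the epiblast markers in the Lefty difference was not tested.

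For the other genes with LIF the differences were smaller, and on the brightest probe sets their arrays also did not overlap after normalization. The share of all genes tested whose arrays separated the genotypes in this way was not analysed here. With so few arrays per group such separation can arise by chance. The lack of overlap, here and for the Lefty genes, is therefore a description and does not show a genotype effect. Tdgf1 in Rbp2-/- cells stood at 59.5% of its Rbp2f/f level (-0.75 ± 0.58, adjusted p = 0.592) and Nodal at 70.5% (-0.50 ± 0.58, adjusted p = 0.737). Gdf3 stood at 124% (0.30 ± 0.18, adjusted p = 0.495), with an interval of -0.10 to 0.71, and Foxh1 at 118% (0.24 ± 0.30, adjusted p = 0.752). As deposited, the genotypes with LIF overlapped for Gdf3, at 937.7 and 543.9 in Rbp2-/- cells, against 723.6 and 726.9 in Rbp2f/f cells. They overlapped for Foxh1 as well, at 441.5 and 324.3 in Rbp2-/- cells, against 346.7 and 458.4 in Rbp2f/f cells. On those values the Gdf3 and Foxh1 differences were -0.021 and -0.072, so their sign depended on the scaling. It depended on the probe set as well: the second sets put Nodal at 107% (0.08), Gdf3 at 95.1% (-0.08) and Foxh1 at 89.4% (-0.15) of the Rbp2f/f level, the first pair with overlapping arrays, while the third Foxh1 set stood at 133% (0.38), and none was called. The median difference of the 6 genes with LIF was -0.62, against -0.0099 over all genes.

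Without LIF the genotypes overlapped on the brightest probe set of all 6 genes. Nodal differed by -0.91 ± 0.58 (adjusted p = 0.504), with an interval of -2.22 to 0.40. The sign of the Nodal and Tdgf1 differences followed the array left out: 0.24 and 0.38 without replicate 1 of Rbp2-/- cells without LIF, -2.07 (adjusted p = 0.0463) and -1.96 (adjusted p = 0.0405) without replicate 2. With all arrays Tdgf1 differed by -0.78 ± 0.58 (adjusted p = 0.573), Lefty1 by -0.52 ± 0.71 (adjusted p = 0.779) and Lefty2 by -0.84 ± 0.66 (adjusted p = 0.599). Gdf3 differed by -0.13 ± 0.18 (adjusted p = 0.780), with an interval of -0.54 to 0.27. Foxh1 was the gene of the 6 with a positive value, 0.73 ± 0.30 (limma adjusted p = 0.319, unadjusted 0.0373), and on its 2 other probe sets both Rbp2-/- arrays lay above both Rbp2f/f arrays. The median of the 6 without LIF was -0.65, against -0.0095 over all genes.

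The test of whether withdrawal acted differently in the genotypes called none of the 6 genes and 0.0% of all genes tested, with 1215 genes at an unadjusted p under 0.05 in limma. The interaction, the withdrawal effect in Rbp2-/- cells minus that in Rbp2f/f cells, was 1.25 ± 1.00 for Lefty1, 1.06 ± 0.94 for Lefty2, -0.42 ± 0.82 for Nodal, -0.03 ± 0.81 for Tdgf1, -0.44 ± 0.25 for Gdf3 and 0.49 ± 0.42 for Foxh1. The adjusted p-values ran from 0.539 to 0.991. So the call of Lefty1 in Rbp2f/f cells and its absence in Rbp2-/- cells were not shown to differ, and the interval of that difference, -0.995 to 3.49, is wide.

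The spread between replicates was itself large and gene by gene for this pathway. Between replicates 2 and 1 of Rbp2-/- cells without LIF, Nodal differed by 2.30 in log2, Tdgf1 by 2.33, Lefty1 by 2.19 and Lefty2 by 1.68. The 5th and 95th percentiles of all genes were -0.57 and 0.62 there, and 0.0916% to 0.330% of genes had a difference at least as large in either direction as each of these 4. Foxh1 differed by 0.74 and Gdf3 by 0.26 between the same arrays. In intensity, replicate 2 was 5.66-fold higher for Nodal, 5.42-fold for Tdgf1, 6.39-fold for Lefty1 and 10.1-fold for Lefty2. The fold of Lefty2 divides by a reading under the median of its array.

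Other genes differed between those 2 arrays along with them. Genes of the primitive streak were among them: Eomes, a T-box factor of streak and endoderm, read 109.9 in replicate 1 and 716.8 in replicate 2. Mixl1, a homeobox factor of the streak, read 132.0 and 1049.3, and Lhx1, a LIM homeobox factor of the anterior streak, read 15.9 and 241.5. Col1a1, a fibroblast collagen, went the other way, with 2766.2 in replicate 1 and 638.6 in replicate 2, and the 9 feeder markers summed to 4058.9 and 1598.1. Most of that gap was Col1a1: the other 8 summed to 1292.7 and 959.5, and Col3a1, Thy1 and Dcn were lower in replicate 1. The 5 epiblast-stage markers were all lower in replicate 1, as were Nodal, Tdgf1 and the Lefty genes, and summed to 673.4 in replicate 1 and 1452.4 in replicate 2. The 10 undifferentiated markers summed to 3377.5 and 3061.3 and were thus close on the 2 arrays. The labels name no feeder layer, and whether the feeder marker signal came from feeder cells was not tested. The part of the feeder marker and epiblast-stage signals in the levels of Nodal, Tdgf1 and the Lefty genes was not tested either.

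In both groups with LIF, of the 6 genes the Lefty pair differed most between replicates. Replicate 2 minus replicate 1 of Rbp2-/- cells with LIF was -1.51 for Lefty1 and -1.86 for Lefty2, 3.04-fold and 7.27-fold in intensity, against 0.36 for Nodal. In Rbp2f/f cells with LIF it was 1.12 for Lefty1 and 1.02 for Lefty2, against -0.37 for Nodal. In Rbp2f/f cells without LIF it was 0.69 for Lefty1, 0.42 for Lefty2, 0.59 for Nodal and -0.75 for Foxh1. Lefty1, Lefty2 and Tdgf1 moved in the same direction between replicates in 4 of 4 groups, and Nodal moved with each of them in 2 of 4. These genes were compared because they shared a pattern already seen, and Gdf3 and Foxh1 were left out. In Rbp2f/f cells without LIF, Gdf3 (-0.05) and Foxh1 (-0.75) moved opposite to Lefty1 (0.69). The share of all genes that moved together in this way was not analysed here, so this is a description of 8 arrays.

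**Figure D3:**
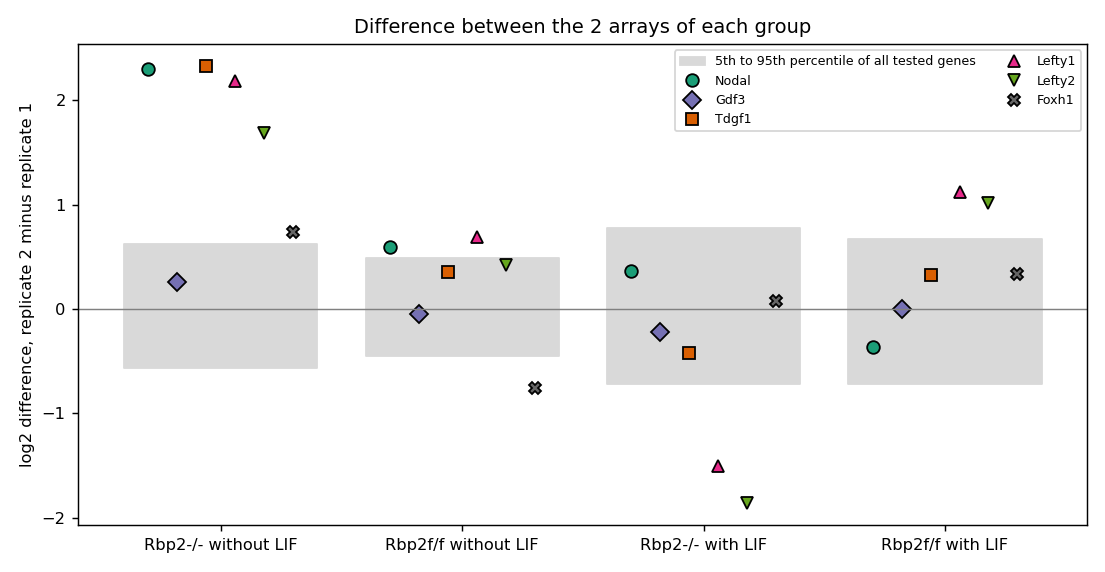
Log2 intensity of replicate 2 minus replicate 1 for each of the 6 genes within each group; the grey bands span the 5th to 95th percentile of all genes tested. Nodal, Tdgf1, Lefty1 and Lefty2 lie between 1.68 and 2.33 in Rbp2-/- cells without LIF, outside the band of -0.57 to 0.62, and the Lefty genes lie outside the bands in both groups with LIF.

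Of the other ligands that signal through SMAD2 and SMAD3, 3 were tested and Tgfb1 rose in both genotypes, by 1.66 ± 0.22 in Rbp2-/- cells (adjusted p = 0.00152) and by 1.47 ± 0.22 in Rbp2f/f cells (adjusted p = 0.0023). Inhbb, an activin subunit, differed by -0.999 in Rbp2-/- and -1.24 in Rbp2f/f cells, and Tgfb2 by 0.35 and 1.44, and these were not called. Inhbb was called lower in Rbp2f/f cells without either Rbp2-/- array without LIF, and in Rbp2-/- cells without replicate 2 of that group. Leaving out replicate 1 of Rbp2-/- cells with LIF, replicate 2 of the same group or replicate 1 of Rbp2f/f cells with LIF brought a call of Tgfb2, higher, in Rbp2f/f cells. Inhba, Gdf11 and Tgfb3 were too dim to be tested, at or under 46.1 on every array, and Gdf1 and Mstn were not analysed here.

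Receptors rose where they were called. Of all genes tested, 7.27% were called higher in Rbp2-/- cells and 14.0% in Rbp2f/f cells. In Rbp2-/- cells 2 of 7 tested receptor genes rose and none fell: Acvr1b, the type I receptor for Nodal and activin, by 0.92 ± 0.18 (adjusted p = 0.0109), and Cfc1, the Cryptic co-receptor related to Tdgf1, by 1.31 ± 0.29 (adjusted p = 0.0162). Tgfbr3 (0.78, adjusted p = 0.0515) and Tgfbr1 (0.52) were not called there. Of the 7, 4 rose in Rbp2f/f cells: Tgfbr3 by 1.54, Tgfbr2 by 1.31, Tgfbr1 by 0.86 and Acvr1b by 0.77 (adjusted p = 0.0144 for Acvr1b). Cfc1 read 143.4 and 98.3 in Rbp2-/- cells without LIF, against 30.3 and 47.5 in Rbp2-/- cells with LIF, and so ran opposite to Tdgf1. Both calls in Rbp2-/- cells were lost without replicate 1 of those cells without LIF or replicate 1 with LIF. The count in Rbp2f/f cells was 2 without replicate 1 of those cells in either medium and 1, Tgfbr3, without replicate 2 without LIF.

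Pcsk6, a convertase that cuts the Nodal precursor, fell by 1.53 ± 0.26 in Rbp2-/- cells (adjusted p = 0.00553) and fell by 1.502 ± 0.26 in Rbp2f/f cells (adjusted p = 0.00437). It read 67.3 and 47.8 in Rbp2-/- cells without LIF, against 171.3 and 222.1 with LIF, with no overlap. Furin, which cuts the same precursor, differed by 0.30 in Rbp2-/- and 0.55 in Rbp2f/f cells and was not called. Among 10 SMADs and partner genes, 0 were called in Rbp2-/- cells and 2 rose in Rbp2f/f cells, Smad3 by 0.94 ± 0.25 (adjusted p = 0.0219) and Smad4 by 0.57 ± 0.17 (adjusted p = 0.0353), a share near the 14.0% of all genes called higher there. The count in Rbp2f/f cells was 0 without either Rbp2f/f array without LIF or without replicate 2 of Rbp2f/f cells with LIF, and 1 without either Rbp2-/- array without LIF or without replicate 1 of Rbp2f/f cells with LIF. The co-repressor gene Tgif1 differed by -1.10 in Rbp2-/- cells (adjusted p = 0.0562) and by 0.02 in Rbp2f/f cells. It was called lower in Rbp2-/- cells when replicate 2 of those cells without LIF or a single Rbp2f/f array with LIF was left out, and Smad3 was called higher there without the dim array. Trim33 (-0.37 and -0.40), Tgif2 (-0.27 and -0.50), Smad2 (0.03 and 0.53) and Drap1 (0.53 and 0.30) were not called in Rbp2-/- or Rbp2f/f cells.

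The other antagonists that were called rose, whereas Lefty1 fell in Rbp2f/f cells. Bambi, a decoy receptor, rose by 2.56 ± 0.32 in Rbp2-/- cells (adjusted p = 0.00119) and by 1.18 ± 0.32 in Rbp2f/f cells (adjusted p = 0.0233). It read 879.5 and 494.2 in Rbp2-/- cells without LIF, against 108.8 and 90.0 with LIF, and 326.5 and 209.9 in Rbp2f/f cells without LIF, against 132.4 and 85.2 with LIF. Its interaction was 1.37 ± 0.45 (adjusted p = 0.388). Tmeff1, a membrane protein that can bind Tdgf1, rose by 1.00 ± 0.18 in Rbp2-/- cells (adjusted p = 0.00644) and by 0.98 ± 0.18 in Rbp2f/f cells (adjusted p = 0.00481). The call of Bambi in Rbp2f/f cells was lost without replicate 1 of those cells without LIF or replicate 2 with LIF. Fst (0.15 in Rbp2-/- and -0.09 in Rbp2f/f cells) and Inha (0.34 in each) were not called, and Cer1, Dand5 and Fstl3 were too dim to be tested.

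Primitive streak and endoderm genes, which the pathway induces in the embryo, rose in Rbp2f/f cells while Nodal, Tdgf1 and the Lefty genes had lower means without LIF. Of 10 tested, 1 rose in Rbp2-/- cells, a share near the 7.27% of all genes called higher there, and 8 rose in Rbp2f/f cells, where 14.0% of all genes were called higher. Lhx1 rose in Rbp2f/f cells by 3.81 ± 0.74, Mixl1 by 3.57 ± 0.73, Sox17 by 2.47 ± 0.29 and Foxa2 by 1.53 ± 0.25, the last pair being endoderm transcription factors (adjusted p = 0.0007 to 0.00776). Eomes, Fgf8, Wnt3 and Gsc rose there too. On the arrays with LIF, Gsc, Lhx1 and Sox17 read at most 16.3, 6.5 and 12.9. At least these passed the filter on mean level through their arrays without LIF, so 8 of 10 is a description. In Rbp2-/- cells Foxa2 rose by 1.11 ± 0.25 (adjusted p = 0.0169), and Sox17 (0.89), Lhx1 (2.12) and Mixl1 (1.62) were not called. Without replicate 1 of Rbp2-/- cells without LIF, 4 of the 10 (Eomes, Lhx1, Mesp1 and Mixl1, not Foxa2) rose in Rbp2-/- cells, and without replicate 2 none of the 9 then tested did. Without replicate 1 of Rbp2-/- cells with LIF the count was 0, and without the dim replicate 2 it was 2, Foxa2 and Wnt3. Leaving out single Rbp2f/f arrays lowered the count in Rbp2f/f cells to between 3 and 5, with Foxa2, Lhx1 and Sox17 called each time. The interaction was negative for 10 of 10 genes with a median of -1.45, against 0.0070 over all genes, and none was called (Sox17 -1.58 ± 0.41, adjusted p = 0.337). That median was -0.40 without replicate 1 of Rbp2-/- cells without LIF. The interaction shares its arrays with both withdrawal comparisons.

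Of the upstream pluripotency regulators, some of which bind near these genes in ES cells, 3 of 5 fell in each genotype. Of all genes tested, 8.24% were called lower in Rbp2-/- cells and 13.2% in Rbp2f/f cells. Pou5f1 differed by -2.96 in Rbp2-/- and -3.07 in Rbp2f/f cells, Sox2 by -2.89 and -2.90, and Nanog by -2.81 and -2.15, and each passed the test in both. Zfp281 (-0.24 in Rbp2-/- and -0.14 in Rbp2f/f cells) and Otx2 (0.21 and -0.58) were not called. No gene of any of these lists was called between genotypes or in the interaction with all arrays included. Without replicate 2 of Rbp2-/- cells without LIF, Eomes and Lhx1 were called lower in Rbp2-/- cells in the genotype comparison without LIF. The lists were compiled with earlier results of these data known and their counts are a description.

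**Figure D4:**
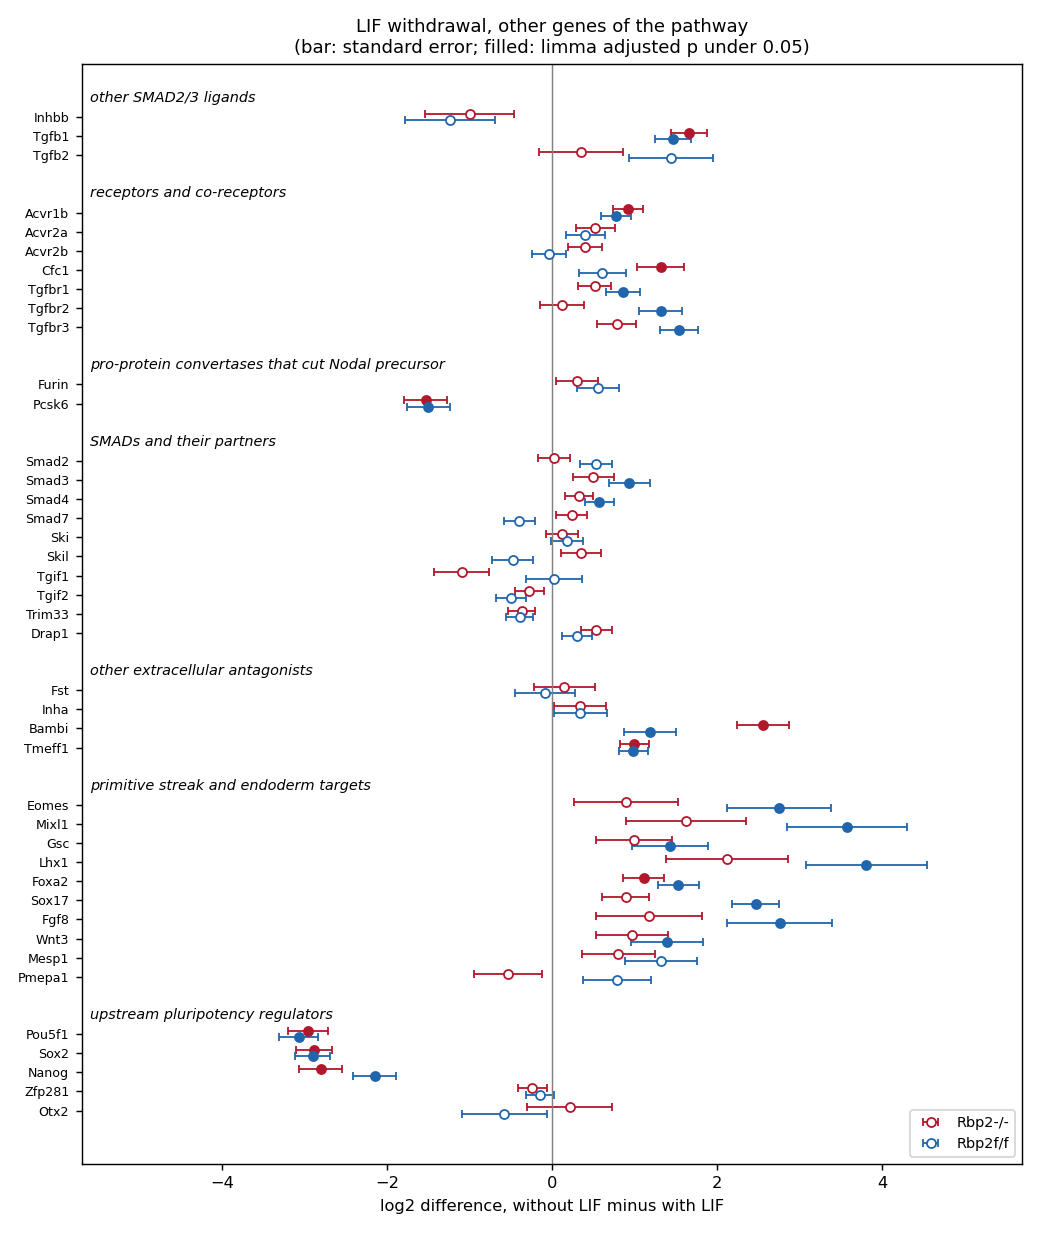
Log2 difference on LIF withdrawal in Rbp2-/- and Rbp2f/f cells for the tested genes of the pathway lists, with standard errors; filled points passed a limma adjusted p under 0.05. Pcsk6, Pou5f1, Sox2 and Nanog were called lower in both genotypes, and Tgfb1, Bambi, Tmeff1, Acvr1b and Foxa2 were called higher in both.

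The genes outside the 6 whose log2 values ran most like each of them over the 8 arrays were found by Pearson's r. The search left out the 6 themselves and genes known only by a clone, accession, Gm or Rik name. Closest therefore means closest among the remaining tested genes, and how the 6 ranked against each other was not analysed here. This is a description of arrays that share media and genotype. Gdf3 ran closest with Dppa2, a pluripotency-associated nuclear protein (r = 0.997), Pipox (0.997) and Bclaf3 (0.995). Dppa2 read 41.8 and 38.4 in Rbp2-/- cells without LIF, against 1072.0 and 949.6 with LIF, and 48.4 and 43.6 in Rbp2f/f cells without LIF, against 1014.9 and 829.0 with LIF, a step by medium like that of Gdf3. Nodal ran closest with Slc20a1, a phosphate transporter (0.984), Aven (0.978) and Slc10a7 (0.966). Tdgf1 ran closest with Aven (0.972), the survival factor Mcl1 (0.965) and Acer2 (0.961), so Aven was near both Nodal and Tdgf1. Aven read 99.5 in replicate 1 and 199.2 in replicate 2 of Rbp2-/- cells without LIF. It was picked by correlation over these same arrays, so its lower value in replicate 1 is no further observation.

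Lefty1 ran closest with the amino acid transporter Slc38a2 (0.975), the zinc finger gene Zic5 (0.968) and Tmem131 (0.961). Zic5 read 132.5 and 53.6 in Rbp2-/- cells with LIF, against 210.3 and 257.6 in Rbp2f/f cells with LIF. It was picked on these same arrays, so its low value on the dim array is no further observation. Lefty2 ran closest with Phyh (0.984), Dusp7 (0.953) and Cpsf6 (0.941), none of them named for Lefty1. Foxh1 ran closest with St3gal4 (0.974), Eif4enif1 (0.912) and Nde1 (0.887). Eif4enif1, which encodes a nuclear shuttling protein of the cap-binding factor eIF4E, averaged 708 in Rbp2-/- and 373 in Rbp2f/f cells without LIF, and 574 in Rbp2-/- and 317 in Rbp2f/f cells with LIF.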

How the data were processed

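The authors deposited 1 linear intensity per probe set and array, with 45101 probe sets and 8 arrays, per the file headers. How they were summarised, background-corrected and scaled is not given in the sources used here. Levels of different probe sets were not compared, and the number of arrays limits the precision. The 64 manufacturer controls were set aside. The intensities were quantile-normalized with limma 3.58.1 in R 4.3.3, because 1 array was dim. Of the probe sets, 34945 had 1 gene symbol and 932 had several. The probe set with the highest mean stood for its gene, which gave 18193 genes. A filter at the 40th percentile of the mean left 10916 genes. These were tested on log2(value + 16) with lmFit, 1 mean per group and all 8 arrays in 1 fit, followed by eBayes (trend on; residual degrees of freedom 4, prior 5.31). P-values are two-sided, adjusted by Benjamini-Hochberg over 10916 genes, and called under 0.05. Errors of log2 values are standard errors.

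The 6 genes and all lists were chosen with earlier results of these data known. Named genes were the 6, Kdm5a, and every measured gene of a pathway list with under 8 (otherwise the 4 with the smallest p in each withdrawal comparison). For each of the 6, the 3 genes outside the 6 with the highest correlation that had a proper name were also named. Eomes, Mixl1, Lhx1, Col1a1, Col3a1, Thy1, Dcn and Dnmt3b in the marker and replicate comparisons, and Fgf8, Wnt3, Gsc and Mesp1, were named after their values were seen. The 20 alternatives were other scalings, pseudocounts of 1 and 64, other filters, variance models and probe set summaries, a threshold of 0.01, a block for the replicate number, and each array left out in turn. Leaving out arrays for the pathway lists was added after seeing the data. The fit was tested on simulated data. Replicates of the same number were not shown to be paired: with only 2 numbers, their deviations correlated at -0.068 to 0.27 between groups.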

Additional observations from a re-analysis of the deposited data

How the results depend on the processing

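Over the 20 alternatives, Gdf3 kept its call in both withdrawal comparisons, at -3.62 to -2.80 in Rbp2-/- and -3.15 to -2.43 in Rbp2f/f cells. Of 595 results for the 6 genes under an alternative, 544 kept their direction and side of the threshold, 26 lost a call, 7 gained one, and 18 changed sign without being called. Lefty2 was not tested with the filter at the 60th percentile.

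In Rbp2-/- cells 2 of the 6 genes were called on withdrawal, but 1 under median centring, a pseudocount of 1, no filter, no trend, array weights, every probe set tested on its own, the mean of probe sets or a threshold of 0.01, and 3 with a replicate block, where Nodal was called (adjusted p = 0.0402). Leaving out 1 array gave 1 to 4. On withdrawal in Rbp2f/f cells 3 were called, 1 at a threshold of 0.01, and 1 to 4 with 1 array left out. Without LIF, 0 were called between genotypes and 0 to 2 with 1 array left out.

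Over all genes, 1694 were called on withdrawal in Rbp2-/- cells, 618 at 0.01 and 553 to 1760 with 1 array left out, the lowest count being without replicate 1 of Rbp2-/- cells without LIF. In Rbp2f/f cells 2962 were called, 1234 at 0.01 and 849 to 3366 with 1 array left out, the lowest being without replicate 2 of Rbp2f/f cells without LIF. Between genotypes without LIF the count of 0 became 3 on values as deposited, 225 with array weights, 30 with the replicate block and 0 to 34 with 1 array left out. With LIF it became 28 as deposited, 1 with every probe set on its own, 3 with the replicate block and 0 to 24 with 1 array left out. The interaction count of 0 became 1 with the replicate block and 0 to 1 with 1 array left out. The causes were not tested. Where an array is left out, the lone array of its group is assumed to vary like the other groups. With 2 arrays per group and intervals of over 2 log2 units for Nodal, Tdgf1 and the Lefty genes, a missed call does not show that these genes were alike.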
